A study of Mus musculus with 2 samples.

Results

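The S100 genes encode small calcium-binding proteins, and 10 of them are described here across the cells of a mouse breast tumour and its lymph nodes: S100a1, S100a3, S100a4, S100a6, S100a8, S100a9, S100a10, S100a11, S100a13 and S100a16. They were taken by symbol from a list of 22620 genes that holds 18 S100 genes. The members were chosen by their levels across cell types and by the difference between cancer cells of the 2 sites, as an earlier look at the same counts had shown them. All levels and ratios of the members are therefore descriptions, and no test was run on them. Tumours were grown in C57BL/6J mice from EO771-HEVM3. This line descends from the murine breast carcinoma line EO771 by repeated passage in mice. In each round the study lit the draining lymph node and picked lung metastasis cells whose fluorescent label the light had changed. The aim was to enrich cells with a preference for lymph node blood vessels as their route. The study named them high endothelial venule metastatic (HEVM). The 2 groups were the primary tumours and the paired lymph nodes of such mice, each pooled from 6 mice into 1 library, with no genotype or treatment that separates them and no age given in the labels. There were no tumour-free mice, so a lymph node level here is that of a node of a tumour-bearing mouse. With 1 library per group, no difference has a replicate check.

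Each S100 protein carries paired calcium-binding loops, usually works as a dimer, and changes shape on binding calcium so that it can grip a partner protein. S100a10 is the exception that stays in the open form without calcium and holds annexin A2 (Anxa2) at membranes. S100a4 binds non-muscle myosin and is widely studied in metastasis, S100a6 binds the Cacybp protein, and S100a11 binds annexin A1 (Anxa1). S100a8 and S100a9 form calprotectin, an abundant neutrophil protein that is released and signals through Tlr4 and Ager. S100a3 is a protein of the hair cuticle whose arginines are modified by Padi3.

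All 10 members lie on mouse chromosome 3 in the GENCODE vM21 annotation of GRCm38, and the identifier of each member matched it. S100a1 (90511034 to 90514392, minus strand) and S100a13 (90514435 to 90524581, plus strand) start 42 bases apart and point away from each other. S100a16 (90537254 to 90543151), S100a3 (90560578 to 90602702), S100a4 (90603771 to 90606045), S100a6 (90612882 to 90624181) and S100a8 (90668978 to 90670035) follow on the plus strand. S100a9 (90692632 to 90695721) is on the minus strand, 22596 bases beyond S100a8. S100a11 (93520488 to 93526287) begins 2824766 bases beyond S100a9 and is followed by S100a10 (93555080 to 93564643), both on the plus strand. S100a3 and S100a4 are 1068 bases apart. The S100a3 model spans the exons of S100a2, and S100a3 and S100a4 each share exon bases on the same strand with the model Gm42674, so reads in those stretches cannot be placed by position alone.

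RefSeq promoters (250 bases before to 50 after a start, GRCm38.p6) were given for 9 of the 10 members, with 13 starts in all, and S100a10 had none. Stretches before the start are shown for the pair of neighbours that was higher in lymph node cancer cells and for the pair that marked neutrophils. Capitals mark a TATA box (TATAAA) or, in S100a9, the letters TTNNGNAA of a C/EBP site found on the opposite strand, and the stretch of S100a3 holds no match. All motifs were searched on both strands. For S100a3 the start shown is the one nearest S100a4, at chr3:90600114-90600213. The stretch of S100a4 is chr3:90603670-90603769, that of S100a9 is chr3:90695722-90695861 on the minus strand, and that of S100a8, where an exon is annotated around the box, is limited to chr3:90669029-90669058.
S100a3: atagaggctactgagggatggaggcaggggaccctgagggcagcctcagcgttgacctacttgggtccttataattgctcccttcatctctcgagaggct
S100a4: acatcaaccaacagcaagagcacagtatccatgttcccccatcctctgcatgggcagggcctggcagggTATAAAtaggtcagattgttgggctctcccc
S100a8: caagctttcctcTATAAAagcagctgacac
S100a9: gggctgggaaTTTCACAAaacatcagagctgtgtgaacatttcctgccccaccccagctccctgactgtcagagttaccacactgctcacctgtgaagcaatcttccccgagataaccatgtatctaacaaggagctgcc

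TATAAA was present in 4 of the 13 promoters, 1 each of S100a3, S100a4, S100a8 and S100a9, against 13.6% of all 32851 promoters of this length. In S100a4 and S100a8 it began 31 and 30 bases before the start, in S100a9 at the start itself, and in S100a3 it was found only at another start, 52 bases before it. TTNNGNAA was present in 4 of the 13, of S100a3 (at 2 starts), S100a8 and S100a9, against 40.7% of all promoters. The AP-1 letters TGANTCA were found in 2 of the 13, in S100a11 with 2 matches 136 and 38 bases before its start and at a start of S100a16, against 7.81% of all promoters. A match is a string of letters and was not tied to any level below.

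The deposited libraries held 12427 primary tumour and 11617 lymph node cells, with medians of 9161 and 2630 unique molecular identifiers (UMIs, counts of single captured transcripts) per cell, and shared 47 barcodes. Limits on detected genes and mitochondrial UMIs and the removal of doublets left 8756 and 9689 cells. Cells were clustered without the S100 genes and named from markers, and each class name means cells like that type. Cancer cells, named from keratins, Epcam and other epithelial markers, numbered 6123 in the primary tumour (median of 14055 UMIs) and 623 in the lymph node (median of 34793 UMIs). Without the upper limit of 6000 detected genes they numbered 6739 (median of 15739 UMIs) and 1305 (median of 46720 UMIs). That limit thus removed a larger part of the lymph node cancer cells. Of the 623 lymph node cells, 510 formed cluster 23, with 2 primary tumour cells, whereas clusters 1 and 0 held 2839 and 1545 primary tumour cells. Such clusters, nearly all of a single library, may be that library and not a type. A level is the sum of a gene's UMIs in all cells of 1 class and library, per 1000000 UMIs of those cells (CPM), for classes of at least 20 cells. The bracketed 95% intervals, exact Poisson for levels and exact binomial for shares and ratios, cover counting error only. Droplets can also carry free RNA of other cells, so low levels are set beside those of classes that should lack the gene.

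S100a6, S100a10 and S100a11 were found in every named class, and their ranks below leave out the unnamed clusters. The highest S100a6 level was in primary tumour pericytes, with 8994 CPM [8800 to 9190], followed by cancer cells with 6496 CPM [6480 to 6512]. Neutrophils (5530 CPM) and fibroblasts (5496 CPM) did not differ beyond their intervals. In the lymph node, cancer cells led with 6147 CPM [6113 to 6181], neutrophils had 5619 CPM [5143 to 6127] and endothelial cells 4322 CPM [4257 to 4388]. T cells of the node were at 327 CPM, and its B cells (209 CPM [200 to 218]) and plasma cells (205 CPM [168 to 248], of which 1 cell held 69 of 104 UMIs) were the lowest of the named classes. Stromal, cancer and neutrophil-like cells thus stood above lymphocytes at both sites.

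S100a10 was led by cancer cells at both sites, with 2805 CPM [2794 to 2815] in the primary tumour and 3396 CPM [3371 to 3421] in the lymph node. Lymph node monocytes came next at their site with 1761 CPM [1521 to 2027]. In the tumour, endothelial (1747 CPM [1620 to 1881]) and dendritic cells (1648 CPM [1448 to 1868]) had overlapping intervals. A single endothelial cell held 253 of 705 UMIs, without which that class was at 1207 CPM, and cancer markers in it stood at 20.7% of their level in cancer cells. Neutrophils had the lowest level of the lymph node, with 87.6 CPM [37.8 to 173] from 8 UMIs. S100a11 had another order. It was highest in lymph node neutrophils, with 5345 CPM [4882 to 5841], against 1388 CPM [1270 to 1514] in those of the primary tumour. In the lymph node, cancer cells (1931 CPM [1912 to 1950]) and endothelial cells (1855 CPM [1813 to 1899]) came next. Primary tumour dendritic cells (1547 CPM), pericytes (1391 CPM) and neutrophils had overlapping intervals.

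**Figure D1:**
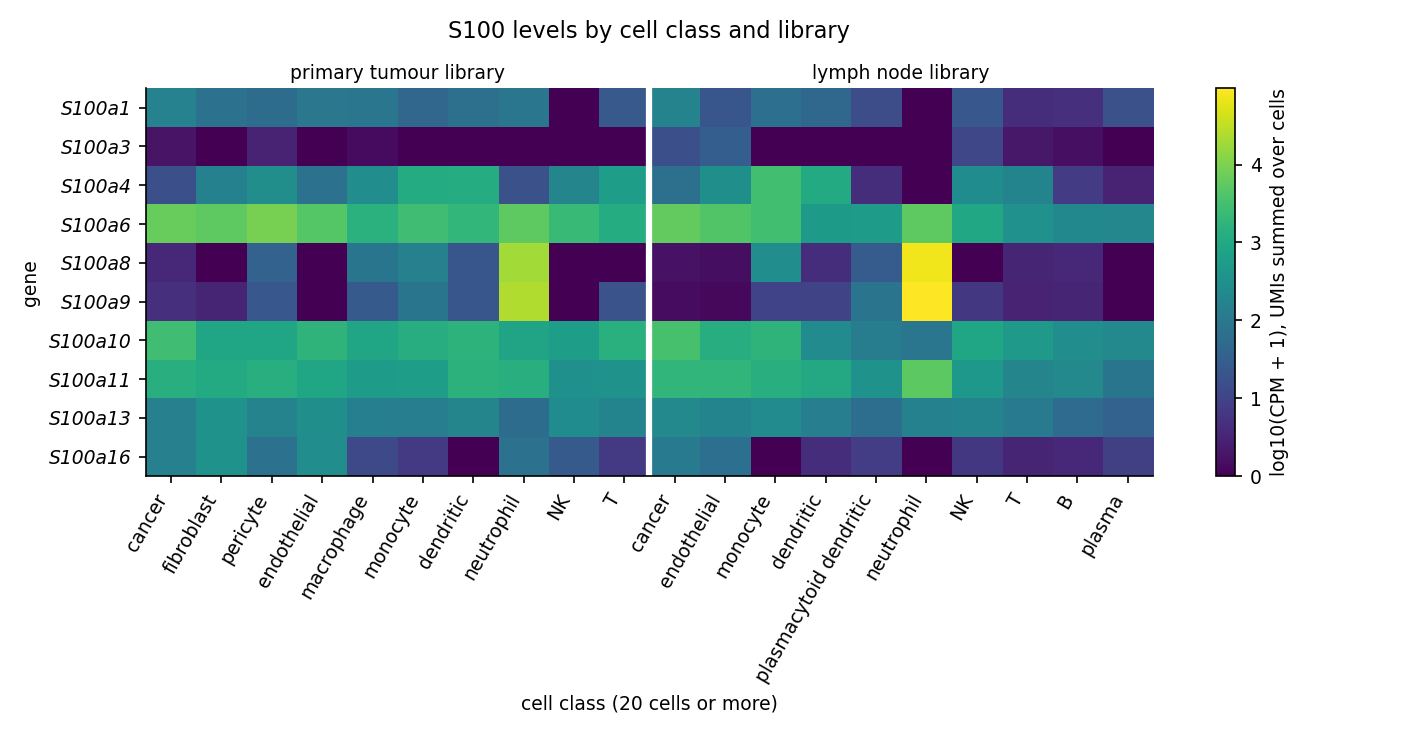
Level of each S100 gene in each cell class, as the log10 of CPM plus 1 (colour), with primary tumour classes on the left and lymph node classes on the right, each from 1 library. S100a8 and S100a9 stand out in neutrophils, S100a4 in monocytes and dendritic cells, and S100a3 is low in every class.

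Among the named classes, S100a4 was highest in monocytes and dendritic cells. Lymph node monocytes had 2901 CPM [2591 to 3238] from 27 cells, and primary tumour monocytes 1152 CPM [1098 to 1208] from 695 cells. Dendritic cells had 1127 CPM [1058 to 1201] in the lymph node and 1229 CPM [1057 to 1422] in the primary tumour, with overlapping intervals. T cells of the primary tumour followed with 604 CPM [493 to 733] from 78 cells, and after thinning to 1000 UMIs, which left out 27 of them, 34.2% [21.5 to 48.8] had a UMI. Clusters without a class name held 33.4% of all S100a4 UMIs of the primary tumour. Among them cluster 5.0, led by Cxcr6 and Klrc2, had 1479 CPM [1388 to 1574], and cluster 5.1, led by Pdcd1 and Prf1, had 1339 CPM [1228 to 1459]. Both held Cd8a among their leading genes. In the lymph node, cluster 6.1 (led by Tbc1d4, Spic and Kit, with S100a4 itself among its leading genes) had 2870 CPM [2686 to 3063].

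Among lymphocytes, S100a4 separated T cells from B cells in the lymph node. Its level was 174 CPM [167 to 182] in T cells and 261 CPM [193 to 345] in NK cells, while B cells had 6.72 CPM [5.18 to 8.59] and plasma cells 1 UMI in all. The 2196 UMIs of T cells lay in 366 of 3648 cells, with at most 35 in a cell, so S100a4 was found in a minority of T cells. After each cell was thinned to 1000 UMIs, 6.66% [5.87 to 7.52] of T cells and 0.632% [0.423 to 0.909] of B cells had a UMI. Lymph node endothelial cells had 298 CPM [281 to 316] against 74.3 CPM [50.2 to 106] in those of the primary tumour. A single cell held 22 of the 30 UMIs of the latter. The class lay in different clusters by site, with 191 of 195 lymph node cells in cluster 21 and 51 of 52 primary tumour cells in cluster 12.

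S100a8 and S100a9 were neutrophil genes in both libraries. Neutrophils were named without them, from Retnlg, Csf3r, Cxcr2 and others, and held 90.1% of the S100a8 and 93.5% of the S100a9 UMIs of the primary tumour, from 307 of 8756 cells. In the lymph node, 37 of 9689 cells held 98.4% and 98.9%. S100a8 was at 19049 CPM [18606 to 19500] in primary tumour neutrophils and 75581 CPM [73808 to 77386] in those of the lymph node. S100a9 was at 24360 CPM [23858 to 24869] and 95232 CPM [93240 to 97255].

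Depth and the neutrophil markers also differed between the sites. The median neutrophil of the primary tumour had 729 UMIs and that of the lymph node 1981. The 8 neutrophil markers together had 8591 and 25840 CPM. Retnlg, a neutrophil secretory product, had 2697 and 19903 CPM, and gave most of the difference in that sum. G0s2 went the other way, with 3158 and 1731 CPM, and Il1r2 was level, with 596 and 613 CPM. The part of these in the difference was not tested. The share of neutrophils with an S100a8 UMI after thinning was 80.5% [68.2 to 89.6] in the primary tumour, where 247 of 307 cells were too shallow to enter, and 82.8% [65.0 to 93.9] in the lymph node.

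The balance of the calprotectin genes was alike in the neutrophils of both sites, with overlapping intervals. There were 0.782 [0.758 to 0.807] S100a8 UMIs per S100a9 UMI in primary tumour neutrophils and 0.794 [0.769 to 0.819] in those of the lymph node. Primary tumour monocytes had 1.67 [1.33 to 2.10] and macrophages 3.51 [2.63 to 4.74], both above the interval of neutrophils. The monocyte level of S100a8 was 144 CPM [126 to 165] and that of macrophages 86.2 CPM [75.1 to 98.6]. In the 27 lymph node monocytes, 30 UMIs of S100a8 stood against 1 of S100a9. In the primary tumour a single monocyte held 60 of the 127 S100a9 UMIs and a single macrophage 26 of 61. More S100a8 than S100a9 was therefore seen in monocytes of both libraries and in macrophages of the primary tumour, at levels far below those of neutrophils.

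**Figure D2:**
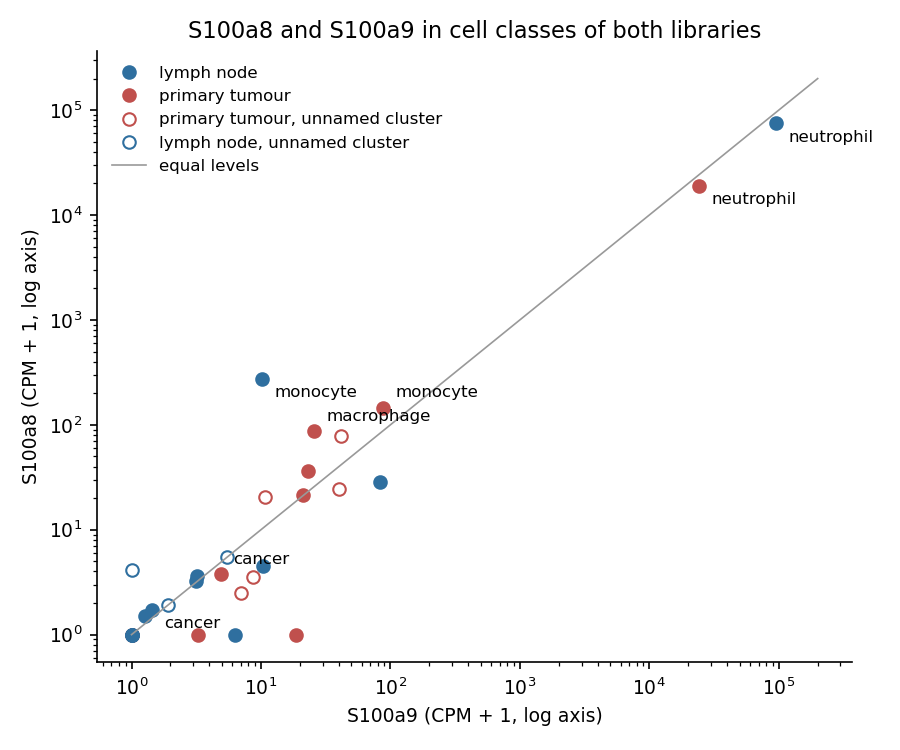
S100a8 (vertical) against S100a9 (horizontal) in each class and unnamed cluster, as CPM plus 1 on log axes, with the line of equal levels. Neutrophils of both libraries lie just below the line, and monocytes and macrophages lie above it.

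S100a1, a regulator of calcium handling in muscle, was highest in cancer cells among the named classes of both sites. It had 163 CPM [160 to 165] in the primary tumour and 169 CPM [163 to 175] in the lymph node. The next classes, primary tumour endothelial cells (94.2 CPM [66.6 to 129]), neutrophils (89.5 CPM) and macrophages (87.4 CPM), had overlapping intervals. Without 1 cell with 16 of its 38 UMIs the endothelial level was 58.8 CPM. In lymph node B and T cells it was at 3.99 and 3.49 CPM. S100a13, which takes part in the release of Fgf1 without a secretion signal, was found in every class. Its lymph node levels ran from 35.5 CPM [21.0 to 56.1] in plasma cells to 255 CPM [170 to 369] in monocytes, and those of the primary tumour from 56.9 CPM in neutrophils to 361 CPM [307 to 422] in fibroblasts.

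S100a16, a widely expressed member, was highest in fibroblasts, endothelial cells and cancer cells. In the primary tumour 345 CPM [292 to 404] was found in fibroblasts, 275 CPM [226 to 331] in endothelial cells and 148 CPM [146 to 151] in cancer cells. Pericytes (74.5 CPM [57.8 to 94.4]) and neutrophils (75.9 CPM [50.4 to 110]) were lower and did not differ beyond their intervals. Cancer cells of the lymph node had 117 CPM [112 to 121] and its endothelial cells 63.9 CPM [56.1 to 72.4]. Monocytes had 6.13 CPM in the primary tumour, and no UMI was found in the 27 lymph node monocytes, which allows up to 27.4 CPM.

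S100a3 had 84 UMIs in the whole primary tumour library and 453 in the lymph node. Of the latter, 318 were in cancer cells and 112 in endothelial cells, which together left 23 UMIs for all other cells. The highest level was that of lymph node endothelial cells, with 29.1 CPM [23.9 to 35.0] in 51 of 195 cells. Cancer cells had 15.6 CPM [13.9 to 17.4]. NK cells had 2 UMIs (10.6 CPM [1.29 to 38.4]), and lymph node B and T cells 0.630 and 1.11 CPM. Primary tumour endothelial cells had no UMI in 52 cells, which allows up to 7.43 CPM.

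All 112 endothelial UMIs lay in cluster 21, which was led by Glycam1 and Fut7, genes of high endothelial venules. Glycam1, Chst4 and Fut7 together had 2879 CPM in its 191 lymph node cells. Markers of cancer cells were at 146 CPM in lymph node endothelial cells, 2.94% of their level in cancer cells, with Cldn7 at 0. In the 97 endothelial cells with no UMI of a cancer marker, S100a3 was at 25.2 CPM [16.6 to 36.7]. Endothelial cells of at least 10000 UMIs held 108 of the 112 UMIs, at 30.6 CPM, and those with fewer had 12.4 CPM [3.39 to 31.9] from 4 UMIs.

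The second comparison set cancer cells of the lymph node against those of the primary tumour. Of the 10 members, 2 were at least 2-fold higher in the lymph node (S100a3 and S100a4) and 2 at least 2-fold lower (S100a8 and S100a9). Among the 10742 genes that reached 100 UMIs in cancer cells of 1 of the sites, 4.64% were as much higher and 9.35% as much lower. Since the members were listed with this contrast known, nothing is read from that. The median log2 ratio of all these genes was -0.18, and that of the 10 members, all of which passed the minimum of UMIs, was 0.17.

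**Figure D3:**
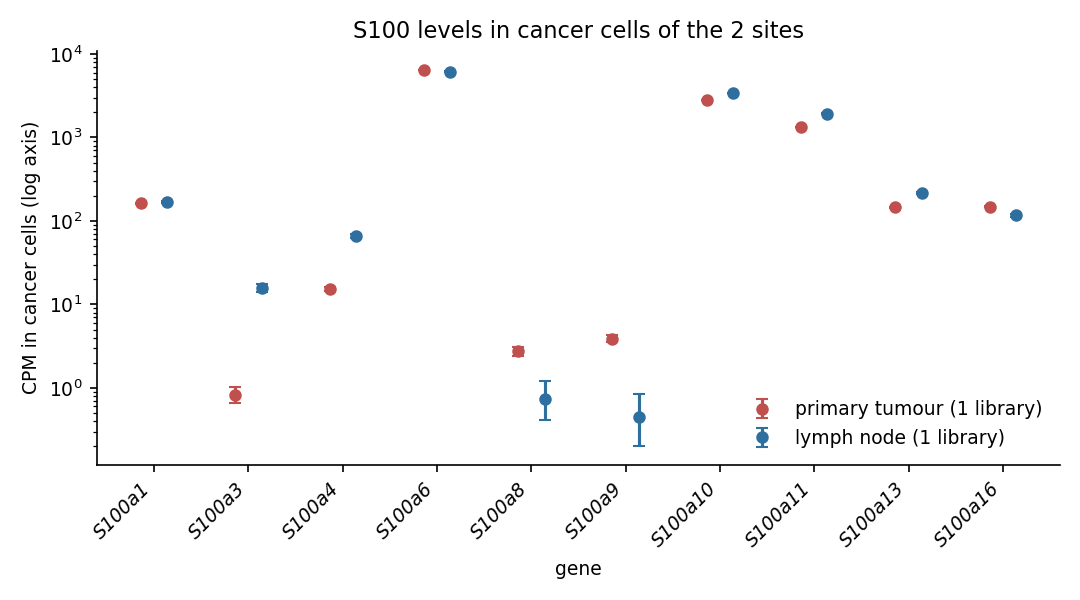
Level of each S100 gene in cancer cells of the primary tumour and of the lymph node, as CPM on a log axis, 1 library each, with 95% Poisson intervals (smaller than the point where not visible). S100a3 and S100a4 are higher in the lymph node, S100a8 and S100a9 are lower, and the other 6 genes lie close together.

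S100a3 had 318 UMIs in 623 lymph node cancer cells and 80 in 6123 primary tumour cancer cells. The levels were 15.6 CPM and 0.824 CPM [0.653 to 1.03], a log2 ratio of 4.24 [3.89 to 4.62], or 18.9-fold. A UMI was found in 192 lymph node cells, and no cell held more than 9. Thinned to 1000 UMIs, 1.53% [0.714 to 2.85] of lymph node cancer cells held a UMI of S100a3, against 0.0586% [0.0105 to 0.182] of B cells of that library (median of 1798 UMIs), while 0.0696% [0.0198 to 0.174] of primary tumour cancer cells showed it. Within the primary tumour library, cancer cells held 80 of the 84 UMIs. Monocytes had none in 695 cells, which allows up to 2.04 CPM. Their median was 1898 UMIs, against 14055 in primary tumour cancer cells. At such unlike depth this limit does not show what free RNA adds to cancer cells. Whether the cancer cell level exceeds the free RNA of the library was not tested.

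S100a4 had 1361 UMIs in lymph node and 1484 in primary tumour cancer cells. The levels were 66.8 CPM [63.3 to 70.4] and 15.3 CPM [14.5 to 16.1], a log2 ratio of 2.13 [2.02 to 2.23]. Of the lymph node cells 68.9% had a UMI, against 16.3% of the shallower primary tumour cells. After thinning the shares were 6.22% [4.44 to 8.43] and 1.32% [1.05 to 1.65]. T cells of the lymph node had a higher level, with 174 CPM, but a like share after thinning, with 6.66% [5.87 to 7.52].

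Transcripts of other cells also differed between the sites. The 6 T cell markers had 80.2 CPM in cancer cells of the node and 26.9 CPM in those of the tumour, which is 2.23% and 1.16% of their levels in T cells. Trbc2 gave 55.4% and 63.4% of these T cell marker sums. The 6 B cell markers were at 46.1 and 10.0 CPM, led by Cd79a (43.7%) in the node and by Ebf1 (66.3%) in the tumour. Of the 6 monocyte markers, at 116 and 73.3 CPM, Plac8 gave 97.7% and 97.1%, and the 6 dendritic cell markers were at 2.75 and 4.39 CPM. The 6 mast cell and basophil markers were at 21.0 and 0.916 CPM, of which Mcpt4 gave 70.1% and 33.7%, with Mcpt8 at 0 in the lymph node. Endothelial markers were at 20.1 and 6.29 CPM, most of it Egfl7, with Cldn5 at 0 in the lymph node. All 6 T and all 6 B cell markers had a UMI at both sites. Their part in the S100a3 and S100a4 differences was not tested.

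Cluster 23 held 314 of the 318 S100a3 and 1294 of the 1361 S100a4 UMIs of lymph node cancer cells. There S100a3 had 17.2 CPM [15.4 to 19.2] and S100a4 70.9 CPM [67.1 to 74.9]. Across the 6 clusters of primary tumour cancer cells S100a3 ran from 0.342 to 1.99 CPM and S100a4 from 11.5 to 25.9 CPM. The 24 lymph node cells of cluster 2, with a median of 1369 UMIs, had 10.3 CPM [2.12 to 30.0] of S100a3 from 3 UMIs and 137 CPM [97.9 to 187] of S100a4. Cluster 3, led by Tff1, was the only cluster with at least 50 cancer cells of each library. In it S100a3 had 1 UMI in 52 lymph node cells and 4 in 785 primary tumour cells. S100a4 had 15.5 CPM [9.19 to 24.5] and 11.8 CPM from 138 UMIs, a log2 ratio of 0.43 [-0.40 to 1.11]. Within that cluster neither member could be told apart between the sites at this depth.

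Depth differed as well, and the ratios were therefore also read at like depth. Among cells of 20000 to 40000 UMIs, S100a3 had 15.9 CPM [13.8 to 18.2] in 402 lymph node cells and 0.841 CPM [0.603 to 1.14] in 1803 primary tumour cells. S100a4 had 65.7 CPM [61.4 to 70.3] and 17.9 CPM [16.7 to 19.1]. Among cells of 10000 to 20000 UMIs, the 41 lymph node cells had 2 S100a3 UMIs (3.18 CPM [0.385 to 11.5]), and S100a4 was at 12.7 CPM [5.49 to 25.1] against 13.3 CPM [12.1 to 14.7]. The 27 lymph node cells under 5000 UMIs had 624 CPM [415 to 902] of S100a4 from 28 UMIs, against 14.5 CPM [9.86 to 20.6] in the primary tumour. Over all cells of 10000 to 50000 UMIs the log2 ratios were 4.13 and 2.04, with medians of 34898 UMIs in the lymph node and 19342 in the primary tumour, so depth still differed there.

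**Figure D4:**
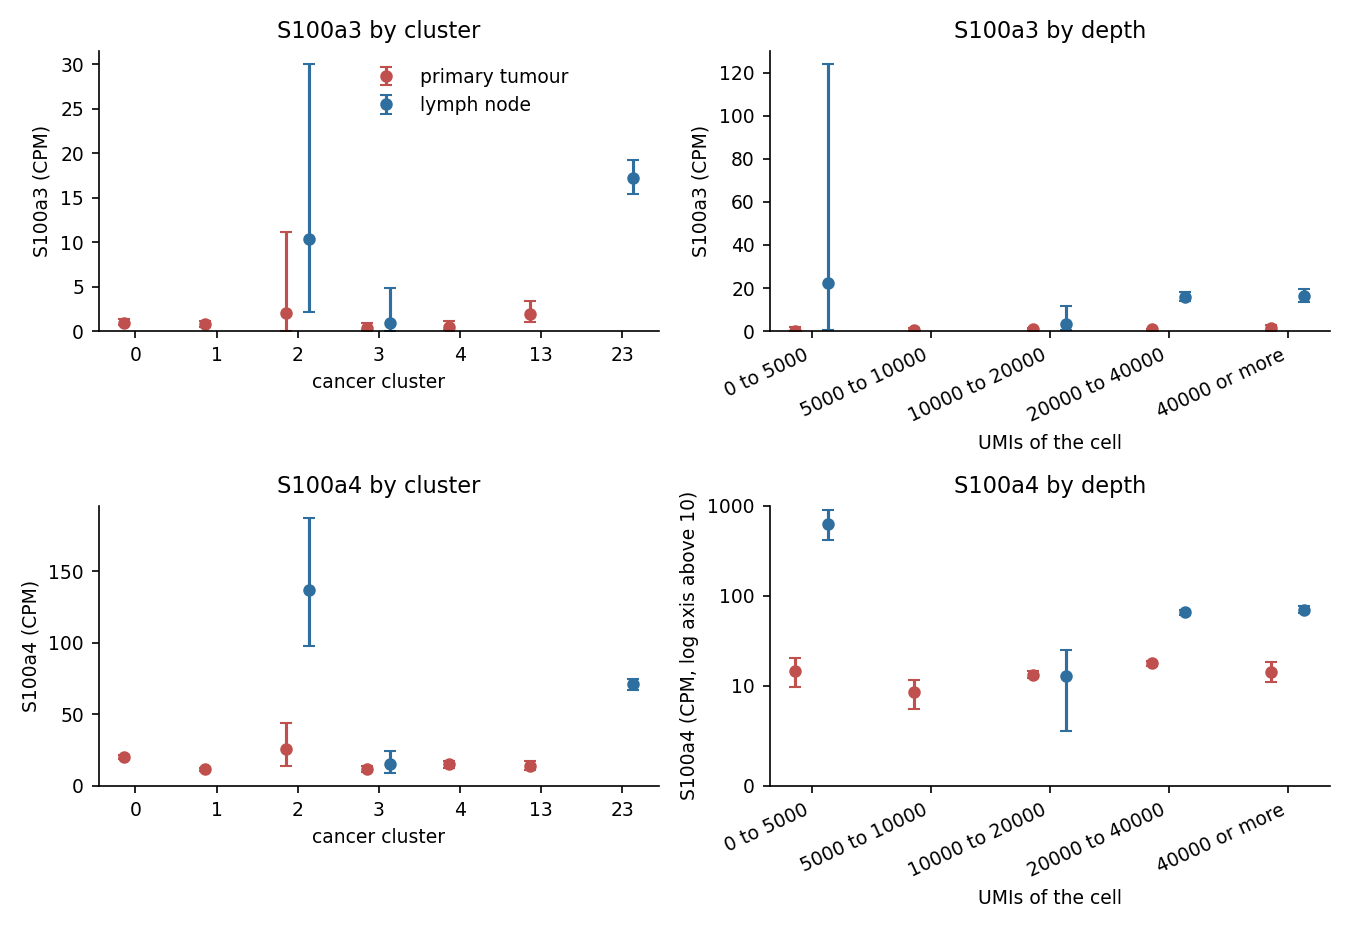
S100a3 (top) and S100a4 (bottom) in cancer cells by cluster (left) and by the UMIs of the cell (right), as CPM with 95% Poisson intervals, for sets of at least 20 cells of 1 library. The S100a3 and S100a4 intervals of cluster 23 and of lymph node cells of 20000 UMIs or more lie above every primary tumour interval, while those of lymph node cells of cluster 3 and of 10000 to 20000 UMIs overlap them. The S100a4 panel by depth has an axis that is logarithmic above 10 CPM.

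S100a8 and S100a9 were scarce in cancer cells. S100a8 had 15 UMIs in the lymph node and 267 in the primary tumour, 0.736 CPM [0.412 to 1.21] and 2.75 CPM [2.43 to 3.10], a log2 ratio of -1.86 [-2.76 to -1.15]. S100a9 had 9 and 377 UMIs, 0.442 and 3.88 CPM, a log2 ratio of -3.06 [-4.28 to -2.20]. At 1000 UMIs per cell, 0.286% [0.167 to 0.455] of cancer cells from the primary tumour had an S100a8 UMI and 0.405% an S100a9 UMI. Fibroblasts and endothelial cells of that library, which should lack S100a8, had none in 89 and 52 cells, which allows up to 6.85 and 7.43 CPM. Pericytes, which should lack it too, had 35.0 CPM from 32 UMIs in 123 cells. Both limits and the pericyte level are above the 2.75 CPM of cancer cells. Median depth was 4405 UMIs in fibroblasts, 6104 in endothelial cells and 6161 in pericytes, against 14055 in cancer cells. Over all of these cancer cells a level beyond free RNA was not shown, and it was not tested. The lymph node levels were below those of B cells of that library, which had 2.63 CPM [1.70 to 3.88] of S100a8 and 2.21 CPM [1.37 to 3.37] of S100a9. Those B cells were shallower, with a median of 1798 UMIs against 34793 in the cancer cells. They held 25 S100a8 UMIs in 4601 cells, against 15 in 623 cancer cells. For S100a9 it was 21 against 9 in the same cells. Whether the lymph node cancer cell levels are background was not tested. By depth, the 733 primary tumour cancer cells under 5000 UMIs stood above the rest, with 19.2 CPM [13.8 to 26.0] of S100a8 and 25.7 CPM [19.4 to 33.5] of S100a9. At 5000 to 10000 UMIs the levels were 1.87 and 2.65 CPM. Among cells of 20000 to 40000 UMIs, S100a8 had 2.77 CPM [2.32 to 3.28] in the primary tumour and 0.926 CPM [0.478 to 1.62] in the lymph node.

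The primary tumour UMIs were concentrated. The 5 cells with most held 29.2% of the S100a8 and 33.4% of the S100a9 UMIs of primary tumour cancer cells, and no lymph node cancer cell held more than 1. The balance of 0.708 [0.603 to 0.831] S100a8 UMIs per S100a9 UMI in those cells overlapped that of neutrophils. With the doublets kept, S100a8 in primary tumour cancer cells went to 1190 UMIs and its log2 ratio to -3.88, and that of S100a9 to -5.15. Without the limit on detected genes its log2 ratio turned to 0.54, and 1 lymph node cell held 168 of the 210 UMIs. S100a9 went to -0.36, no longer 2-fold, with 130 of 161 UMIs in 1 cell. Leaving out the top cell of each library under that setting, chosen after the data were seen, gave -1.66 for S100a8 and -2.55 for S100a9. In cancer cells with no UMI of a neutrophil marker the log2 ratios were -1.42 for S100a8 and -1.90 for S100a9. The 8 neutrophil markers were at 5.56 CPM in primary tumour and 20.7 CPM in lymph node cancer cells, of which Ly6g gave 54.3% and 87.4%, with Retnlg at 0.412 CPM and at 0.

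The other 6 members differed by less than 2-fold. The log2 ratio was 0.57 [0.52 to 0.62] for S100a13, with 216 against 146 CPM, and 0.54 [0.52 to 0.56] for S100a11. It was 0.28 [0.26 to 0.29] for S100a10, which was at -0.15 [-0.21 to -0.10] within cluster 3, and 0.06 [0.00 to 0.11] for S100a1. S100a16 was lower, at -0.35 [-0.41 to -0.28]. S100a6 was at -0.08 [-0.09 to -0.07], and taken relative to the median of all genes it changed sign to 0.11. The most abundant members in cancer cells, S100a6 and S100a10, were found in nearly every cell. S100a6 was missing from 1.77% of lymph node and 0.163% of primary tumour cancer cells, and its level per cell had a median of 5492 CPM in the lymph node and 5752 CPM in the primary tumour. Across cells of at least 10000 UMIs their levels moved together, with Spearman's rho of 0.65 over 588 lymph node cells and 0.66 over 4057 primary tumour cells, which share a library and its range of depth.

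Neighbours on chromosome 3 shared a direction in some places and not in others. S100a8 and S100a9 were both lower (-1.86 and -3.06), and S100a11 and S100a10 were at 0.54 and 0.28. S100a3, at 4.24, is followed inside its own model by S100a2 at -0.84 [-1.58 to -0.23], then by S100a4 at 2.13 and S100a6 at -0.08. S100a14, an epithelial S100 gene that is not among the members, lies between S100a13 and S100a16 and had a log2 ratio of 2.15 [2.00 to 2.29], with 35.8 CPM in cancer cells of the node against 8.08 CPM in those of the tumour. Of the 8 other S100 genes, 3 reached 100 UMIs in cancer cells, of which S100a14 was at least 2-fold higher in the lymph node (4.64% of all genes) and none lower (9.35%). S100a7a was at 0.07 [-0.64 to 0.68]. S100a1 and S100a13, which start next to each other, were at 0.06 and 0.57.

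**Figure D5:**
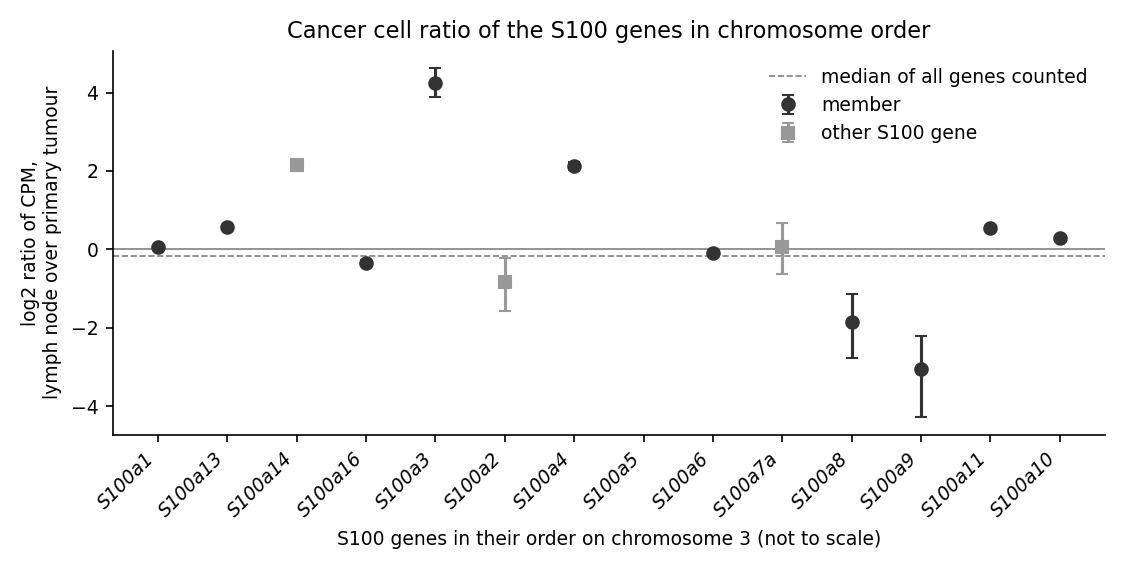
Log2 ratio of CPM in lymph node over primary tumour cancer cells for the S100 genes in their order on chromosome 3 (distances not to scale), members as circles and other S100 genes as squares, with 95% intervals for counting error. S100a3, S100a4 and S100a14 are high with lower genes between them. S100a5 and S100a7l2, with 0 and 2 UMIs in cancer cells, are not drawn.

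Of 12 partner genes, 10 reached 100 UMIs in cancer cells, with 2 at least 2-fold higher in the lymph node, 1 lower and a median log2 ratio of -0.15. Over all genes 4.64% were as much higher and 9.35% lower, with a median of -0.18. Anxa2, which S100a10 holds, was at -0.17 [-0.19 to -0.14], Anxa1 at -0.14 [-0.18 to -0.10] and Cacybp at 0.20 [0.16 to 0.24]. Ahnak, which binds the S100a10 and Anxa2 complex, was at -0.71 [-0.75 to -0.67], and Anxa11, a partner of S100a6, at -0.65 [-0.78 to -0.52]. Myh9, the myosin heavy chain that S100a4 binds, was at -0.41 [-0.47 to -0.36]. Anxa6, a membrane-binding annexin, was higher at 1.18 [1.09 to 1.26]. Fgf1, the growth factor released with S100a13, was lower at -1.31 [-1.67 to -0.98], with 3.83 against 9.51 CPM.

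Padi3, the enzyme that modifies S100a3, had 211 UMIs in lymph node and 62 in primary tumour cancer cells, 10.4 and 0.638 CPM, a log2 ratio of 4.01 [3.60 to 4.45]. Of 19 hair shaft genes in the gene list, 5 reached 100 UMIs, with 3 at least 2-fold higher, 1 lower (4.64% and 9.35% of all genes) and a median of 3.36. The higher genes were Padi3, the hair keratin Krt33b at 5.26 [4.92 to 5.64], with 29.4 against 0.762 CPM, and the transcription factor gene Lef1 at 3.36 [2.92 to 3.81]. Tchh, which encodes trichohyalin of the inner root sheath, was lower at -1.76 [-2.63 to -1.07]. A gene passes the minimum of UMIs through the site where it is high, and this list was chosen with the S100a3, Krt33b and Padi3 results known. Across 588 lymph node cancer cells of at least 10000 UMIs, S100a3 had a Spearman's rho of 0.18 with Krt33b, 0.06 with Padi3 and -0.12 with Lef1, and of 0.30 with S100a4 and 0.28 with S100a10. In counts this sparse these are no more than a description.

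Of 7 genes for S100 receptors and their signalling, 5 reached 100 UMIs, with 1 at least 2-fold higher, 1 lower (4.64% and 9.35% of all genes) and a median of 0.07. Bsg, a surface glycoprotein that binds S100a9, was at 1.01 [0.99 to 1.03], with 1085 against 539 CPM, and Myd88, the adaptor below Tlr4, at -1.24 [-1.61 to -0.91]. Tlr4 was at -0.34 [-0.63 to -0.06] and Ager had 5 and 37 UMIs.

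The genes most like 3 of the members were sought over the 20 combinations of class and library with at least 20 cells, by Pearson's correlation of log2(CPM + 10). For S100a8 they were A530064D06Rik (0.98), Wfdc21 (0.97) and Csf3r (0.97), each highest in lymph node neutrophils. For S100a4 they were Rap2a, Glud1 and Ttc39c (0.80 each), highest in primary tumour dendritic cells, lymph node monocytes and primary tumour T cells. For S100a3 they were Tnni1 (0.88), Lce1h (0.87) and Syt17 (0.86), all at 10.4 CPM or less in every class. Among the members the pair most alike was S100a8 with S100a9 (0.95), followed by S100a6 with S100a11 (0.81). The points share libraries and differ in depth, and no p-value is given.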

How the data were processed

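Single-cell 3′ libraries of primary tumours and paired lymph nodes, 1 each, were analysed. The authors' deposited matrices give UMI counts, not normalized. They were made with Cell Ranger on GRCm38, in version 5.0.0 per the file headers and 2.1.1 per the submitters' processing notes. The gene list is shorter than a full annotation. The study's methods describe removal of rarely detected genes, and whether this shortened the list was not tested. Depth was 173317475 UMIs for the primary tumour and 122207852 for the lymph node. Members and lists were chosen with earlier results of these data known. Named were all members, listed genes with at least 100 UMIs and a 2-fold difference, known partners and receptors of a described member at any level, and the 3 genes most like S100a3, S100a4 and S100a8. S100a2 and S100a7a were named for their position after their values were seen.

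Cells with over 200 and at most 6000 genes and at most 5% mitochondrial UMIs were kept. Scrublet (scanpy 1.11.5, expected rate 6%) marked 391 primary tumour doublets. Its threshold marked 0 in the lymph node, where the 616 highest scores were removed. Cells were clustered jointly (Leiden, resolution 1) on 2160 variable genes that excluded S100 and listed genes, after regression of cell cycle scores (Seurat 5.3.0). Unnamed clusters, and those with markers of a second class, were split again at resolution 0.5. Class names rest on markers, not on an annotation by the study, and a difference from the study can arise there. In all, 668 primary tumour and 255 lymph node cells stayed unnamed.

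Ratios added 0.5 count to each sum. Shares were computed after thinning to 1000 UMIs, without shallower cells. A count of 0 was given a limit of 3 counts. The formulas were tested on simulated counts. Positions came from GENCODE vM21 and promoters from RefSeq. No protein sequence was used here. Alternatives changed the filters, doublets, clustering, summing and choice of cells. Software was python 3.11.15 with scipy 1.17.1, numpy 2.4.6, igraph 0.11.9, pandas 2.3.3 and matplotlib 3.10.9.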

Additional observations from a re-analysis of the deposited data

How the results depend on the processing

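No paired analysis was possible because each group had 1 library. The count of members at least 2-fold higher in lymph node cancer cells was 2, and it was 0 within the cancer cluster with at least 50 cells of each library, where S100a3 had too few UMIs to be counted and S100a4 had a log2 ratio of 0.43. The count of members at least 2-fold lower was 2, and it was 0 in that cluster, where S100a8 and S100a9 had too few UMIs to be counted, and 0 without the upper limit on detected genes. Under the latter the log2 ratio of S100a8 reversed to 0.54, and without its top cell in each library, a setting added after the data were seen, it was -1.66. The other 25 of 28 alternative counts stayed within 1.5 times. Of 120 alternative log2 ratios, 74 stayed within the counting interval of the value given, and that of S100a8 was the 1 ratio of at least 2-fold that changed sign. Among ratios under 2-fold, S100a10 went to -0.15 in the shared cluster, S100a6 to 0.11 relative to the median of all genes, and S100a1 to -0.01 without the upper limit. Of 68 alternative class levels, 23 left that interval. S100a3 ran from 1.75 to 4.47 and S100a4 from 0.43 to 2.62, both lowest in that cluster. The S100a8 level of lymph node neutrophils ran from 53454 to 86929 CPM. Where not stated, the cause was not tested.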
